A study of Mus musculus with 22 samples.

Results

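The nuclear genes of oxidative phosphorylation were followed in RNA from sorted mouse LSK cells of 4 genotypes. Members were all gene symbols that start with Nduf, Uqcr or Atp5, the cytochrome c oxidase symbols Cox4 to Cox8, the 4 succinate dehydrogenase genes and Cycs, with 7 symbols ending in -ps left out. This gave 94 of the 33641 gene symbols listed, and 90 of them reached a mean of 1 TPM (a length-scaled share of all transcripts) over the libraries. The 13 protein genes of the mitochondrial genome served as the comparison set. LSK cells lack mature lineage markers and carry Sca-1 and Kit, and this gate holds the stem cells and multipotent progenitors of the marrow. All mice were C57BL/6, had received pI:pC to start deletion, and were sampled 6 days later without culture of the cells. The libraries were Chd8-/-P53-/- (DKO), Chd8-/- (Chd8 KO), P53-/- (P53 KO) and WT, with 3 libraries each. CHD8 is a chromatin remodeler and P53 a stress-activated transcription factor, so the 4 groups ask what CHD8 loss does with and without P53. The labels name neither a Cre line nor an age. They also do not say that libraries came from separate mice, so each p-value rests on a spread between libraries that may be technical.

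Oxidative phosphorylation passes electrons from complex I (NADH dehydrogenase) and complex II (succinate dehydrogenase) through complex III and cytochrome c to complex IV, which reduces oxygen, while complex V makes ATP from the resulting proton gradient. Most subunits are encoded in the nucleus, and the mitochondrial genome supplies the hydrophobic core of complexes I, III, IV and V. Quiescent blood stem cells are known for a low respiratory activity, which rises as progenitors start to divide and differentiate.

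The labels were first checked against marker genes. Trp53 stood at 16.1 to 18.1 TPM in DKO, 244 to 268 TPM in Chd8 KO, 17.5 to 24.3 TPM in P53 KO and 229.5 to 268 TPM in WT. Chd8 stood at 34.8 to 44.4 TPM in DKO, 26.2 to 35.6 TPM in Chd8 KO, 53.1 to 69.4 TPM in P53 KO and 48.2 to 73.9 TPM in WT, so that its level was lower but not gone after deletion, and the DKO change against WT missed the test (log2 change -0.59 ± 0.18, limma adjusted p = 0.078). Kit (180.1 to 295 TPM) and Ly6a, the Sca-1 gene (85.0 to 356 TPM), were present in every library. Run numbers in the table names put P53 KO 1 and P53 KO 2 in a second run, apart from the other 10 libraries. Summed mature neutrophil markers reached 840.4 TPM in WT 3, against 12.2 and 45.3 TPM in the other WT libraries. The depth of the libraries is unknown, since each table sums to 1000000 TPM.

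Respiratory genes were among the abundant messages of LSK cells, and 67 of the 94 members averaged over 100 TPM. Together they took up 1.96% to 2.0998% of all TPM in DKO, 2.09% to 2.20% in Chd8 KO, 1.92% to 1.99% in P53 KO and 1.74% to 2.00% in WT. TPM are scaled by transcript length, so levels can be set side by side. The most abundant member was Ndufab1 among the accessory subunits of complex I, Atp5sl (now Dmac2) among its assembly factors, Sdha in complex II, Uqcrh in complex III, Cox4i1 in complex IV and Atp5b in complex V. Atp5b, the catalytic beta subunit, averaged 1155 ± 50.1 TPM in DKO, 1172 ± 13.4 TPM in Chd8 KO, 1046 ± 30.9 TPM in P53 KO and 1077 ± 86.4 TPM in WT (SD, n = 3 each). Uqcrh, the hinge subunit next to cytochrome c1, averaged 531 ± 36.5 TPM in DKO, 545 ± 22.9 TPM in Chd8 KO, 560.2 ± 60.2 TPM in P53 KO and 466 ± 31.3 TPM in WT (SD, n = 3 each). Neither gene passed the test in any comparison. Assembly factors of complex I were far lower, with means of 16.0 to 52.2 TPM over the 12 libraries.

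In all, 4 members lay under 1 TPM and were not tested. Ndufa4l2, Cox7b2 and Cox8b reached at most 0.17, 0.113 and 0.579 TPM, and Cox8c was listed at 0 in every library. These are isoforms known from hypoxic, testis or muscle tissue. In their place LSK cells carried Ndufa4, Cox7b and Cox8a, at group means of 544 to 703 TPM, 233 to 283 TPM and 408 to 593 TPM.

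**Figure D1:**
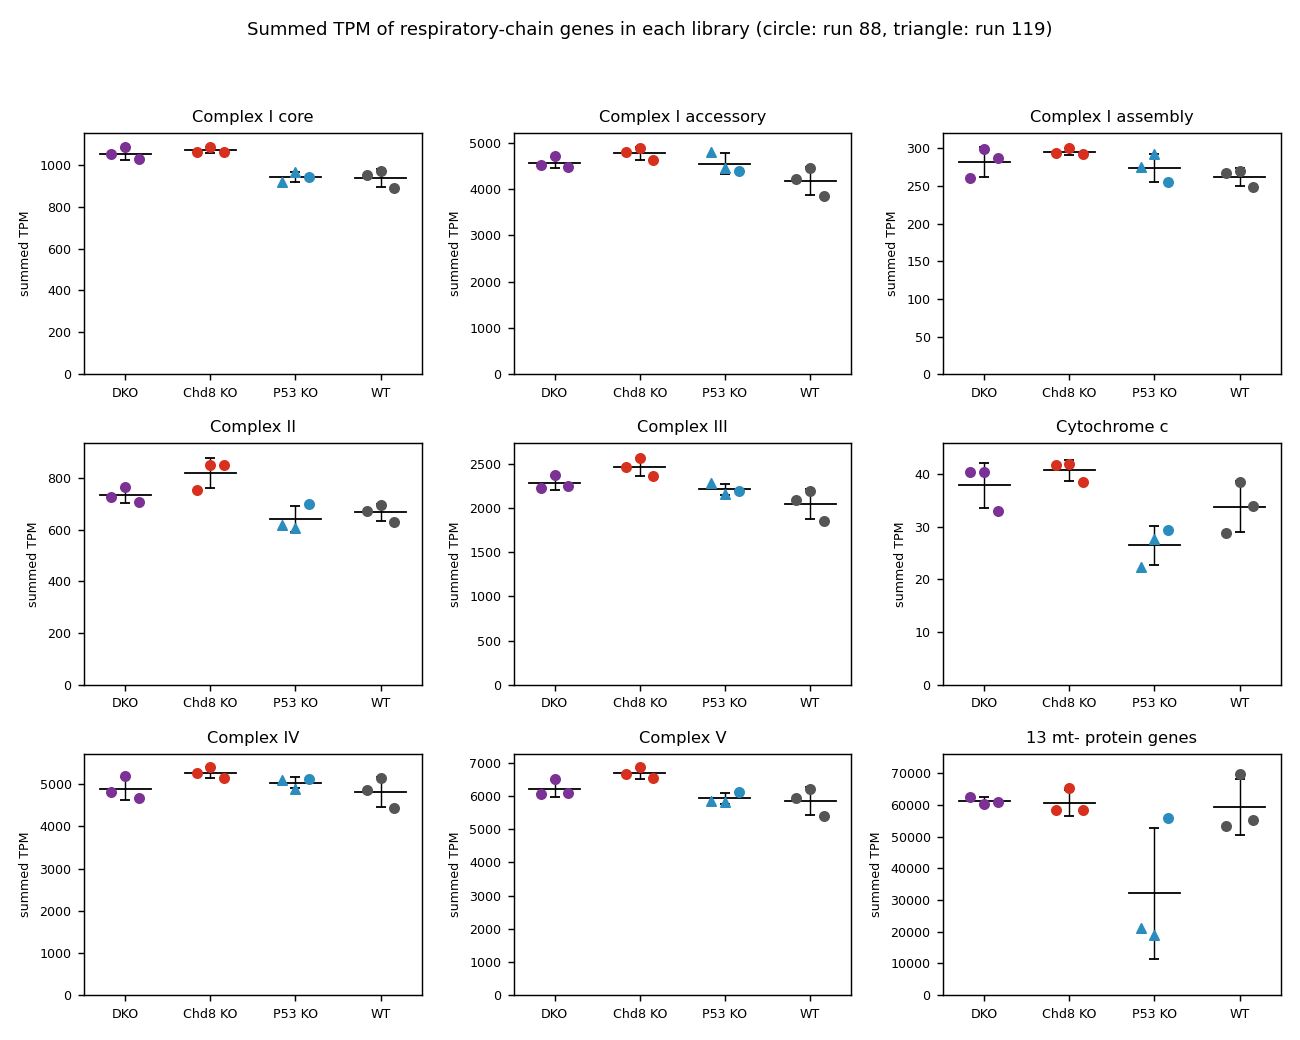
Summed TPM of each class of nuclear respiratory genes and of the 13 mt- protein genes (vertical axes, starting at 0) in the 12 libraries, by genotype; points are libraries, bars the mean and SD of 3. Chd8 KO libraries lie above WT in each nuclear class except cytochrome c, and P53 KO 1 and P53 KO 2 (triangles) have mt- sums of 21171 and 19043 TPM.

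The class sums were higher together in the Chd8 KO libraries. The accessory subunits of complex I summed to 4796, 4891 and 4619 TPM in the 3 Chd8 KO libraries, against 4207, 4461 and 3857 TPM in WT. Complex V summed to 6686, 6870.1 and 6543 TPM in Chd8 KO, against 5944, 6230 and 5404 TPM in WT. Complex II summed to 751, 851 and 851 TPM in Chd8 KO, against 673, 695 and 630.3 TPM in WT. In these classes, and in the complex I core, complex I assembly, complex III and complex IV sums, no Chd8 KO library overlapped a WT library, narrowly so in complex IV, where the lowest Chd8 KO sum was 5155 TPM and the highest WT sum 5148 TPM. Cycs, the electron carrier between complexes III and IV, had 41.7, 41.9 and 38.4 TPM in Chd8 KO, against 28.8, 38.5 and 33.8 TPM in WT, and there the groups overlapped. WT 3 was the lowest of the WT libraries in each of these sums except Cycs, so the sums are not independent of each other. How often sums of other gene sets lay apart in the same way was not tested. In bulk RNA of this kind, a change in the cells that make up the gate and a change in RNA per cell cannot be told apart.

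Gene by gene, 27 of the 90 tested members were higher and 3 lower in Chd8 KO than in WT (limma, Benjamini-Hochberg adjusted p under 0.05 over all 13162 genes). Across all genes tested, 9.65% were called higher and 6.98% lower, or 16.6% in either direction. The median change of the tested members was 0.19 on the log2 scale of TPM + 1, against 0.02 over all genes, and 78 of the 90 had a positive sign. Apart from Cox4i2 (1.22), the higher members rose by 0.23 to 0.70 log2, and the lower ones were Cox6a2 (-3.13), Ndufb7 (-0.54) and Cox8a (-0.30). The count was 17 under median-of-ratios scaling, and it was 18 without WT 1, 18 without WT 3, 18 without Chd8 KO 1 and 14 without Chd8 KO 2. Under that scaling the split over all genes moved to 7.90% higher and 8.71% lower, while the members stood at 15 higher and 2 lower with a median of 0.16. Among the 78 mitochondrial ribosomal protein genes, another nuclear set, 14 were higher and 3 lower with a median of 0.17, and 7 or 8 were higher without WT 1, WT 3 or any 1 of the Chd8 KO libraries. None of the 13 mt- genes was called (limma; 0 in either direction also at an unadjusted p under 0.05), and their median was 0.04.

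Markers of some other cell types moved with the same comparison, and those of others did not. Over all genes tested, 9.65% were higher and 6.98% lower in Chd8 KO. Of the erythroid markers 6 of 14 were lower in Chd8 KO, with sums of 149 to 236 TPM against 620.02 to 1114 TPM in WT. Of the B-lineage markers 8 of 10 were lower, with sums of 67.5 to 155 TPM in Chd8 KO against 692 to 1236 TPM in WT, and of the mast, basophil and eosinophil markers 6 of 8 were lower, with 268 to 305 TPM in Chd8 KO against 1076 to 2339 TPM in WT. No marker of these lists was at 0 in any library. None of the 7 tested mature neutrophil markers was called (limma; 0 in either direction also at an unadjusted p under 0.05), with sums of 68.9 to 298 TPM in Chd8 KO against 12.2, 45.3 and 840.4 TPM in WT, but without WT 3 there were 6 of 7 called higher. Of the T and NK markers, 3 of 5 tested were lower (Trbc1, Trbc2 and Lck), although the list summed to 184 to 235 TPM in Chd8 KO against 186 to 223 TPM in WT.

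Markers within the gate moved too. Slamf1 and Procr, which mark stem cells, and Ly6a were higher in Chd8 KO than in WT, and Flt3, which marks multipotent progenitors, was lower. Slamf1 had 18.7, 20.3 and 16.1 TPM in Chd8 KO, against 5.88, 7.78 and 5.97 TPM in WT, with no overlap (1.36 ± 0.17 log2, limma adjusted p = 0.000537). Flt3 had 28.6, 53.7 and 98.3 TPM in Chd8 KO, against 188, 113 and 149 TPM in WT, again with no overlap (-1.44 ± 0.36 log2, limma adjusted p = 0.0208). As single libraries were left out, 1 to 3 of the gate markers were higher, and Flt3 was no longer called without WT 1, WT 3, Chd8 KO 1 or Chd8 KO 2. The part of all these markers in the respiratory gene changes was not tested.

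Complex I, which has the most members, also held the largest number of called members. Of its 29 accessory subunits 10 were higher and 1 lower in Chd8 KO. Ndufa7, an accessory subunit of the NADH-oxidizing arm, had 312, 323 and 316 TPM in Chd8 KO, against 245, 243 and 217 TPM in WT. The groups were apart by more than the spread within either (log2 change 0.43 ± 0.06, adjusted p = 0.00126, limma). Ndufa2, another accessory subunit of the matrix arm, averaged 221 ± 8.32 TPM in Chd8 KO and 172 ± 4.09 TPM in WT (SD, n = 3 each), a log2 change of 0.36 ± 0.05. Ndufab1, the acyl carrier protein that also serves mitochondrial fatty acid synthesis, averaged 359 ± 8.49 TPM in Chd8 KO and 257 ± 27.4 TPM in WT (SD, n = 3 each), a change of 0.48 ± 0.08 log2.

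Ndufv1, the NADH-binding subunit of the conserved core, averaged 151 ± 2.65 TPM in Chd8 KO and 134 ± 7.65 TPM in WT and missed the test (SD, n = 3 each; limma adjusted p = 0.0719). Of the 9 assembly factors, 0 were called by limma, with 3 higher at an unadjusted p under 0.05 and 8 of the 9 positive. The closest were Ndufaf4 (0.40 ± 0.13, limma adjusted p = 0.0647) and Ndufaf2 (0.44 ± 0.16, limma adjusted p = 0.0912).

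In complex II, the 4 genes split. Sdhb, the iron-sulfur subunit, had 186, 194 and 193 TPM in Chd8 KO, against 147, 156 and 158 TPM in WT, with no overlap (log2 change 0.31 ± 0.07, limma adjusted p = 0.0169). Sdhc, a membrane anchor, had 146, 218 and 227 TPM in Chd8 KO, against 120.0, 135 and 102 TPM in WT (0.70 ± 0.17, limma adjusted p = 0.017). Chd8 KO 1 lay close to WT 2, and Chd8 KO 2 and Chd8 KO 3 were far above. The transcript that set those 2 libraries apart was ENSMUST00000155798.1, with 28.9, 101 and 99.8 TPM in Chd8 KO, against 19.1, 34.97 and 15.6 TPM in WT. The most abundant Sdhc transcript, ENSMUST00000081560.4, had 79.9, 83.1 and 92.9 TPM in Chd8 KO, against 69.8, 72.1 and 59.6 TPM in WT, and its change did not pass the test. The Sdhc call was also lost without WT 3, Chd8 KO 2 or Chd8 KO 3. Sdha, the catalytic flavoprotein (0.07 ± 0.06), and Sdhd, the other anchor (0.19 ± 0.09), were not called.

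Complex III gave 3 higher members of 8, and each of the 8 had a positive sign. Uqcr10, a small subunit of the complex, had 393, 399.9 and 356 TPM in Chd8 KO, against 290.01, 301 and 275 TPM in WT. The lowest Chd8 KO library stood above the highest WT library (log2 change 0.40 ± 0.07, limma adjusted p = 0.00357). Uqcrq, another small subunit, averaged 291 ± 26.7 TPM in Chd8 KO and 214 ± 26.8 TPM in WT (SD, n = 3 each), a change of 0.44 ± 0.10 log2. Uqcrb was the other called member (0.32 ± 0.08).

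In complex V, 7 of 16 members were higher and none was lower in Chd8 KO. Atp5l, subunit g of the membrane part, had 472, 506 and 472 TPM in Chd8 KO, against 379, 388 and 353 TPM in WT, with no overlap (0.37 ± 0.07 log2, limma adjusted p = 0.00511). Atp5j2, subunit f, averaged 332 ± 19.5 TPM in Chd8 KO and 249 ± 37.1 TPM in WT (SD, n = 3 each), a change of 0.42 ± 0.10 log2. The other 5 were Atp5g2 (0.67 ± 0.18), 1 of the 3 genes for the rotor ring subunit c, Atp5k (0.36 ± 0.10), Atp5o (0.31 ± 0.07), Atp5f1 (0.31 ± 0.08) and Atp5c1 (0.23 ± 0.06). In complex IV, 4 members were higher and 2 lower of 16 tested. Cox7c, a small nuclear subunit, had 394, 391 and 365 TPM in Chd8 KO, against 284, 254 and 235 TPM in WT (0.58 ± 0.10 log2, limma adjusted p = 0.00429). Cox7a2, the common isoform of its subunit, averaged 292.6 ± 10.05 TPM in Chd8 KO and 216 ± 13.2 TPM in WT (SD, n = 3 each), a change of 0.44 ± 0.07 log2. Ndufa4, long listed with complex I and now placed in complex IV, rose by 0.33 ± 0.09.

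Among these 30 calls, 14 held under every one of the 24 alternatives run. Among them were Atp5l, Cox6a2, Cox7a2, Cox7c, Ndufa13, Ndufa2, Ndufa7, Ndufa8, Ndufab1, Ndufb10, Ndufb2, Ndufb7 and Uqcr10. Each call outside these 14 was lost without at least 1 of WT 1, WT 2, WT 3, Chd8 KO 1, Chd8 KO 2 or Chd8 KO 3. The labels do not state how reads were assigned by strand or between near-identical copies, so genes that overlap another gene are uncertain: 30 members overlap another RefSeq gene, and 15 overlap a protein-coding one.

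**Figure D2:**
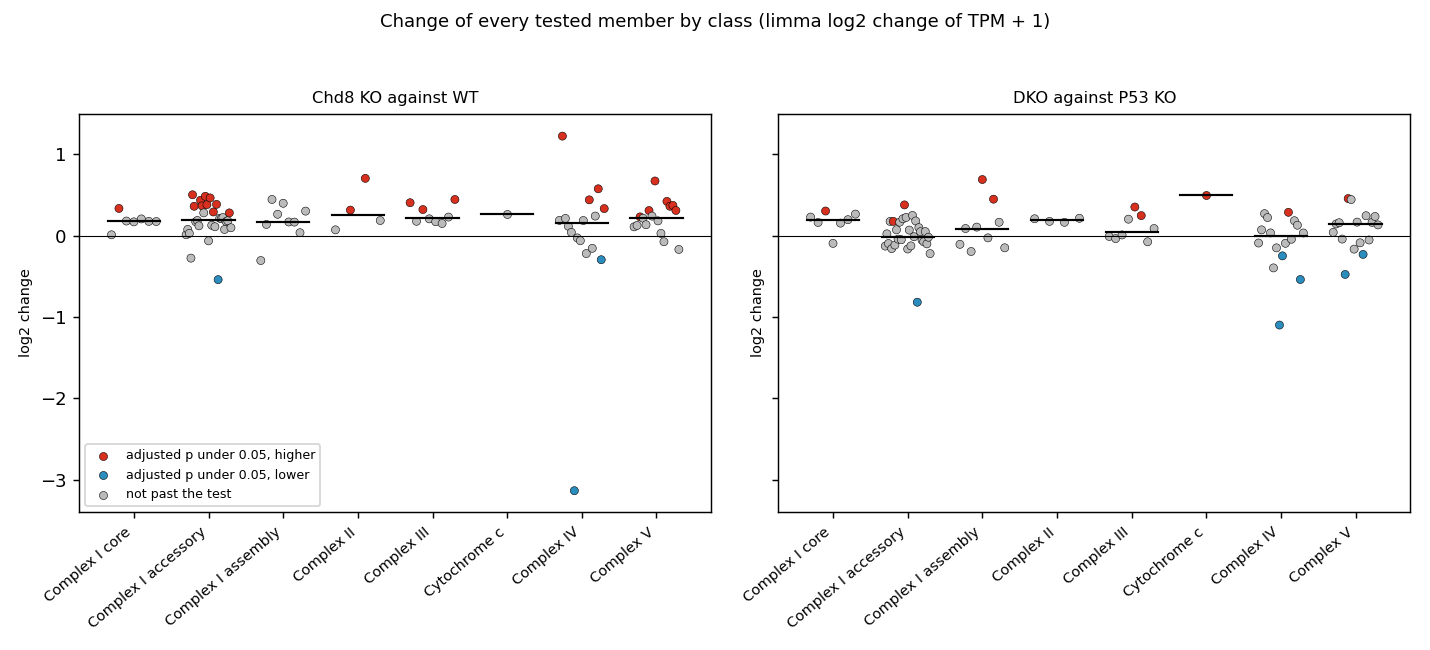
Log2 change (vertical axis) of the 90 tested members by class (horizontal axis) for Chd8 KO against WT (left) and DKO against P53 KO (right); colours mark calls at an adjusted p under 0.05 and black bars the class medians. Most points lie a little above 0 on the left, with Cox6a2 at -3.13, while the right panel has 10 higher and 6 lower calls.

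The 2 largest changes of the set were both in tissue isoforms of complex IV. Cox6a2 (chromosome 7, 128205435 to 128206366, GRCm38), the heart and skeletal muscle form of subunit 6a, had 6.96, 10.3 and 5.84 TPM in DKO, 0.251, 1.054 and 0.586 TPM in Chd8 KO, 11.4, 7.92 and 11.7 TPM in P53 KO, and 18.6, 12.7 and 9.27 TPM in WT. It reached at most 1.054 TPM in the Chd8 KO libraries and lay at 5.84 TPM or more in the other 9. The log2 change was -3.13 ± 0.28 for Chd8 KO against WT (limma adjusted p = 7.78e-05) and 2.41 ± 0.28 for DKO against Chd8 KO (limma adjusted p = 0.000828). Both calls held under the 24 alternatives. The change against P53 KO in DKO was -0.40 ± 0.28 and did not pass. Cox6a1, the common form, was not called in any comparison and lay at 402 to 416 TPM in all 4 group means, so that Cox6a2 was a minor part of the pair in each genotype.

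Genes linked to plasmacytoid dendritic cells were looked at beside Cox6a2 after its values were seen. Irf8, a transcription factor of the dendritic and monocyte lineages, had 134.7, 191 and 125 TPM in DKO, 19.998, 33.7 and 17.0 TPM in Chd8 KO, 180.4, 76.1 and 94.6 TPM in P53 KO, and 81.0, 59.7 and 212 TPM in WT. It was lowest in the Chd8 KO libraries (-2.11 ± 0.46 log2 against WT, limma adjusted p = 0.0112). Siglech stood between 0.394 and 2.38 TPM in all libraries and was not called, and Bst2 was not lower in Chd8 KO (0.59 ± 0.22, limma adjusted p = 0.1). Of the 6 genes looked at, Irf8 and Ccr9 (-1.14 ± 0.28) were called lower in Chd8 KO than in WT. Tcf4 (-0.39 ± 0.13), Cd300c (-0.93 ± 0.48) and Siglech (-0.60 ± 0.32) were negative without a call. The part of these 6 genes in the Cox6a2 change was not tested.

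Cox4i2 (chromosome 2, 152753916 to 152765039, GRCm38), the lung-enriched and oxygen-responsive form of subunit 4, moved the other way. It had 2.62, 4.30 and 2.52 TPM in DKO, 13.8, 12.7 and 9.30 TPM in Chd8 KO, 2.84, 5.13 and 1.48 TPM in P53 KO, and 5.57, 4.61 and 3.46 TPM in WT. The 3 Chd8 KO libraries lay above the other 9. The log2 change was 1.22 ± 0.31 for Chd8 KO against WT (limma adjusted p = 0.0229), a call lost without WT 3, Chd8 KO 1 or Chd8 KO 2, and -1.65 ± 0.31 for DKO against Chd8 KO (limma adjusted p = 0.00902), which held throughout. Cox4i2 overlaps 6308 bases of Bcl2l1, an anti-apoptotic gene with 22.3 to 26.9 TPM in DKO, 37.6 to 41.3 TPM in Chd8 KO, 17.8 to 20.7 TPM in P53 KO and 20.9 to 26.5 TPM in WT. Reads of the 2 genes may not have been told apart. Cox4i1, the common form, averaged 598 ± 24.7 TPM in DKO, 646 ± 20.1 TPM in Chd8 KO, 636 ± 19.7 TPM in P53 KO and 567 ± 28.8 TPM in WT (SD, n = 3 each) and was not called.

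Cox6b2 (chromosome 7, 4751792 to 4753094, GRCm38), known as the testis form of subunit 6b, was the isoform that was low in DKO alone. It had 58.1, 40.4 and 58.0 TPM in DKO, 114, 97.4 and 89.7 TPM in Chd8 KO, 103, 109 and 122 TPM in P53 KO, and 114, 102 and 97.5 TPM in WT. No DKO library reached the range of the other 9. The log2 change was -1.004 ± 0.142 against WT (limma adjusted p = 0.00332), -0.94 ± 0.14 against Chd8 KO (limma adjusted p = 0.00322) and -1.10 ± 0.14 against P53 KO (limma adjusted p = 0.0017). The level was spread over 9 listed transcripts, and the leading one, ENSMUST00000063324.13, held 24.6% of it, with 15.9, 15.4 and 12.97 TPM in DKO, 31.9, 37.7 and 29.2 TPM in Chd8 KO, 11.7, 7.0 and 34.0 TPM in P53 KO, and 26.2, 27.4 and 23.1 TPM in WT. On that transcript alone none of the 3 comparisons passed, and the change against P53 KO was 0.04. The common Cox6b1 was not called in any comparison, with -0.09 ± 0.08 for DKO against WT. Cox7a1, the muscle form of subunit 7a, stood at 3.0 to 3.8 TPM in the group means and was not called.

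**Figure D3:**
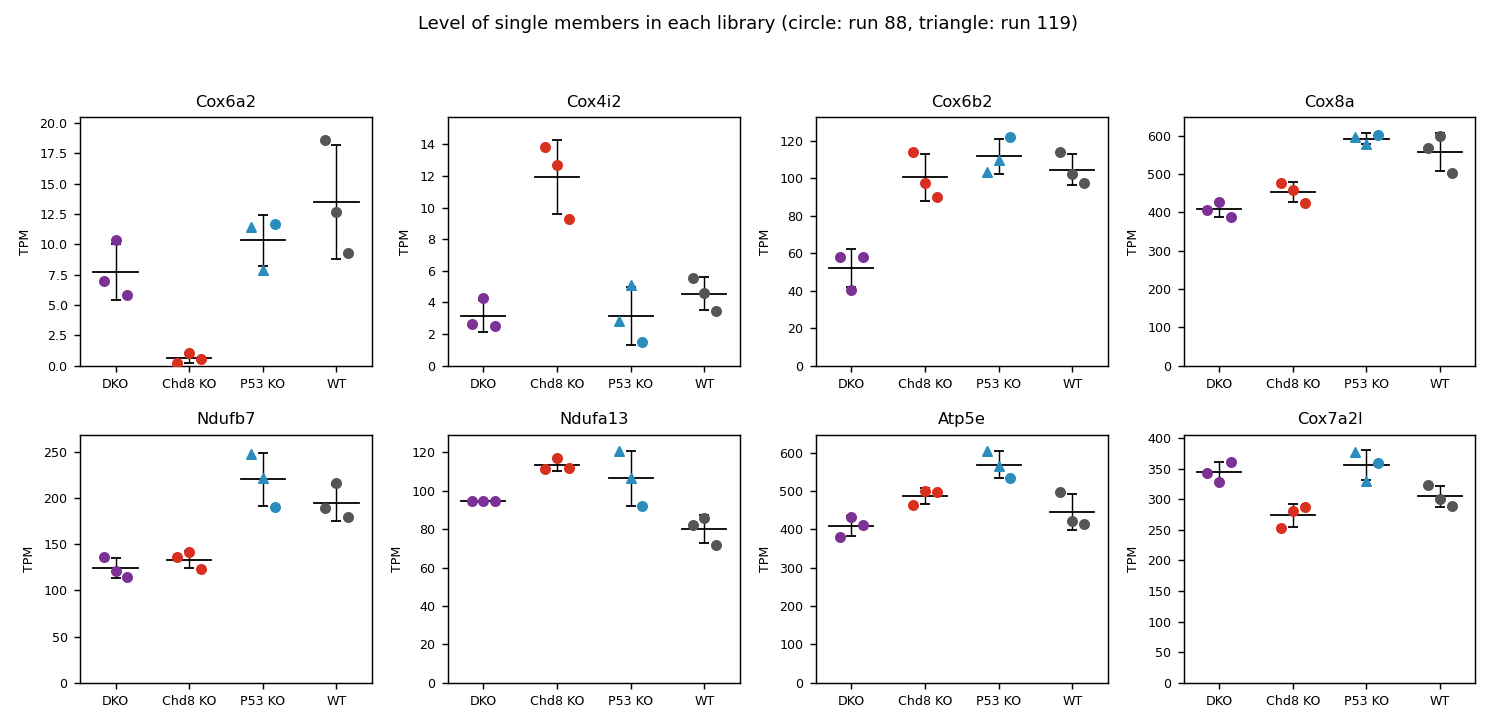
TPM (vertical axes, starting at 0) of 8 members in the 12 libraries by genotype; points are libraries, bars the mean and SD of 3. Cox6a2 is lowest and Cox4i2 highest in Chd8 KO, Cox6b2 is lowest in DKO, and Ndufb7 and Cox8a are lower in both genotypes with the Chd8 deletion.

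**Figure D4:**
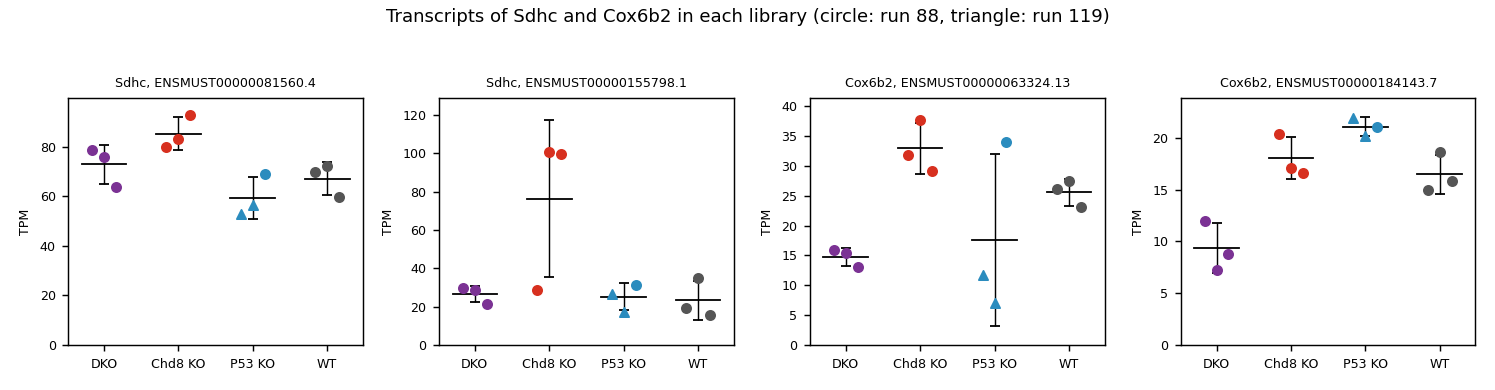
TPM (vertical axes, starting at 0) of 2 transcripts of Sdhc and 2 of Cox6b2 in the 12 libraries by genotype; points are libraries, bars the mean and SD of 3. ENSMUST00000155798.1 is near 100 TPM in Chd8 KO 2 and Chd8 KO 3 and at 28.9 TPM in Chd8 KO 1, and ENSMUST00000063324.13 is at 11.7 and 7.0 TPM in P53 KO 1 and P53 KO 2 and at 34.0 TPM in P53 KO 3.

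Ndufb7 and Cox8a were the 2 abundant members that were lower after CHD8 loss both with and without P53. Ndufb7 (chromosome 8, 83566758 to 83571623, GRCm38), an accessory subunit of complex I that faces the intermembrane space, had 136, 121 and 115 TPM in DKO, 136, 141 and 123 TPM in Chd8 KO, 248, 222 and 191 TPM in P53 KO, and 189, 216 and 179 TPM in WT. Every library with the Chd8 deletion was below every library without it. The log2 change was -0.54 ± 0.11 for Chd8 KO against WT (limma adjusted p = 0.00815), -0.65 ± 0.11 for DKO against WT (limma adjusted p = 0.00823) and -0.82 ± 0.11 for DKO against P53 KO (limma adjusted p = 0.00202). The last of these calls was lost in the run of 10 libraries, where P53 KO 3 is the only P53 KO library.

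Cox8a (chromosome 19, 7215158 to 7217616, GRCm38), the common form of the smallest nuclear subunit of complex IV, had 408, 428 and 389 TPM in DKO, 476, 459 and 424 TPM in Chd8 KO, 598, 578 and 603 TPM in P53 KO, and 569, 599 and 503 TPM in WT. The 6 libraries with the Chd8 deletion were again below the 6 without it. The log2 change was -0.45 ± 0.07 for DKO against WT (limma adjusted p = 0.0077) and -0.54 ± 0.07 for DKO against P53 KO (limma adjusted p = 0.00233), and both held under the 24 alternatives. The change of -0.30 ± 0.07 in Chd8 KO against WT (limma adjusted p = 0.0225) was lost under median-of-ratios scaling and without WT 1, WT 2, Chd8 KO 2 or Chd8 KO 3. These comparisons share libraries, and neither gene had a called interaction.

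Against WT, the DKO libraries had 6 higher and 3 lower members, where 3.46% of all genes were called higher and 1.77% lower (5.23% in all). The median change of the tested members was 0.14, against 0.09 over all genes. The 6 higher members were Ndufb4 (0.44 ± 0.09), Cox7c (0.44 ± 0.10), Ndufa7 (0.38 ± 0.06), Ndufb10 (0.36 ± 0.07), Cox7a2 (0.29 ± 0.07) and Ndufa2 (0.27 ± 0.05), and each was also called higher in Chd8 KO against the same WT libraries. The 3 lower members were Cox6b2, Ndufb7 and Cox8a. Under median-of-ratios scaling 0 members were higher and 3 lower (limma), and the count of 9 became 4 without DKO 2 and 4 without DKO 3.

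DKO and Chd8 KO differ by label in P53 alone, although Chd8 itself was at 34.8 to 44.4 TPM in DKO against 26.2 to 35.6 TPM in Chd8 KO (0.44 ± 0.18 log2, limma adjusted p = 0.133). There, 2 members were higher and 5 lower, where 6.32% of all genes were called higher and 4.21% lower (10.5% in all), and the member median was -0.09 against 0.06 over all genes. Besides Cox6a2, Cox4i2 and Cox6b2, the called members were Cox7a2l, Uqcrb, Ndufa4 and Ndufa8. Cox7a2l had 343, 329 and 361 TPM in DKO, against 253, 280.01 and 288 TPM in Chd8 KO. All 3 DKO libraries were above all 3 Chd8 KO libraries (0.33 ± 0.08 log2, limma adjusted p = 0.0202). Uqcrb (-0.34 ± 0.08), Ndufa4 (-0.33 ± 0.09) and Ndufa8 (-0.31 ± 0.07) were lower in DKO. The count of 7 became 3 without Chd8 KO 2, DKO 1 or DKO 3, and Cox7a2l, Uqcrb and Ndufa8 were also lost without Chd8 KO 1. All 14 erythroid markers were higher in this comparison, with sums of 897 to 1891 TPM in DKO against 149 to 236 TPM in Chd8 KO, and 5 to 7 were without any 1 of the Chd8 KO libraries, DKO 2 or DKO 3. Of the B-lineage markers 5 of 10 were higher, with 3 to 9 as single libraries were left out, and of the mast, basophil and eosinophil markers 4 of 8. Flt3 was higher (1.74 ± 0.36) and Slamf1 (-1.19 ± 0.17) and Ly6a (-1.23 ± 0.30) lower in DKO. The part of these markers in the member changes was not tested.

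P53 loss alone gave no called member by limma, where 0.182% of all genes were called (0.076% higher and 0.106% lower). Before adjustment, 20 members were higher and 5 lower in P53 KO than in WT at a p under 0.05, where 5.6% of all genes were higher and 9.07% lower (14.7% in all), and the median was 0.05 against -0.03 over all genes. Atp5e (0.36 ± 0.08) and Ndufa13 (0.40 ± 0.10) had the smallest p (limma adjusted p = 0.197 each). Without P53 KO 3, which leaves only the P53 KO libraries of the second run, 11 members were called. In that fit genotype and run cannot be told apart, and the share of all genes called there is not given.

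Chd8 loss in the absence of P53 (DKO against P53 KO) gave 10 higher and 6 lower members, where 11.2% of all genes were called higher and 3.69% lower (14.9% in all). The median was 0.07 against 0.11 over all genes, and -0.05 under median-of-ratios scaling, which moved the median of all genes by -0.11 and left 1 member higher and 6 lower. Over all genes that scaling gave 4.24% higher and 5.76% lower. Ndufaf4, a complex I assembly factor, had 30.6, 32.8 and 33.1 TPM in DKO, against 16.5, 18.7 and 24.3 TPM in P53 KO. The P53 KO library that shares a run with DKO was the nearest to it (0.69 ± 0.13 log2, limma adjusted p = 0.0101). Cycs had 40.3, 40.3 and 32.9 TPM in DKO, against 22.3, 27.6 and 29.4 TPM in P53 KO, and again the groups did not overlap (0.50 ± 0.13 log2, limma adjusted p = 0.0299). The other higher members were Atp5f1 (0.46 ± 0.08), Ndufaf6 (0.45 ± 0.13), Ndufab1 (0.38 ± 0.08), Uqcrc2 (0.35 ± 0.09), Ndufs3 (0.30 ± 0.07), Cox7a2 (0.29 ± 0.07), Uqcrfs1 (0.25 ± 0.06) and Ndufa2 (0.18 ± 0.05).

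All 10 of these rises were lost with the run as a covariate or in the run of 10 libraries, where 3 and 2 members were called, each of them lower in DKO. With the run as a covariate the 10 changes were still positive, at 0.13 (Uqcrc2) to 0.39 (Ndufaf4), on a fit in which P53 KO 3 carries its genotype. The lower members were Cox6b2, Ndufb7, Cox8a, Atp5e (-0.48 ± 0.08), Cox6c (-0.25 ± 0.07) and Atp5j (-0.23 ± 0.06), the F6 subunit of the stalk. Atp5e, Cox6c and Atp5j were also lost with the run as a covariate, at -0.39, -0.23 and -0.18. The Cox6c call was lost under 15 of 24 alternatives. Atp5j overlaps 967 bases of Gabpa. Erythroid markers were higher in 6 of 14 cases, with sums of 897 to 1891 TPM in DKO against 342 to 1842 TPM in P53 KO. That count was 3 without P53 KO 1 or DKO 2 and 10 without P53 KO 3. Of the tested T and NK markers, only Trbc1 (-1.31 ± 0.18) and Lck (-1.26 ± 0.25) were called, both lower. Trbc2 and Nkg7 were negative and Gzmb positive (1.16 ± 0.42), all without a call. In other lists, Prss34 (-2.45 ± 0.45), Gata2 (-0.44 ± 0.11) and Cxcl12 (-2.08 ± 0.56) were lower and Slamf1 (0.56 ± 0.17) higher. The part of these markers was not tested. The count of 16 was 7 without P53 KO 1, 9 without P53 KO 2, 26 without P53 KO 3, and 9 without DKO 1, DKO 2 or DKO 3.

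The mt- genes were low in the second run, which holds only P53 KO libraries. Their summed level was 62684, 60275 and 60847 TPM in DKO, 58440, 65461 and 58414 TPM in Chd8 KO, 21171, 19043 and 56034 TPM in P53 KO, and 53261, 69744 and 55211 TPM in WT. The 2 low values are the libraries of the second run, and P53 KO 3 lies within the range of the rest. P53 KO 1 and P53 KO 2 also differed from P53 KO 3 in erythroid sums (346 and 342 against 1842 TPM). Mast, basophil and eosinophil sums were 1259 and 949 against 4075 TPM. Myeloid progenitor sums were not apart (5627 and 3206 against 4266 TPM). The parts of run and cell content in the mt- levels were not tested. The ratio of mt- to nuclear TPM was 2.87 to 3.18 in DKO, 2.74 to 2.97 in Chd8 KO, 1.06, 0.989 and 2.83 in P53 KO, and 2.80 to 3.48 in WT. In DKO against P53 KO, 7 of 13 mt- genes were called higher, among them mt-Atp8 (2.14 ± 0.58 log2, limma adjusted p = 0.0342), and none was with the run as a covariate, where their median change was 0.08 in place of 0.91. The count of 7 ran from 0 to 13 as single libraries were left out, with 0 without P53 KO 1 or P53 KO 2 and 13 without P53 KO 3. With all libraries fitted, 11.2% of all genes were called higher in DKO against P53 KO. In P53 KO against WT 0 of 13 passed (limma), with 13 lower at an unadjusted p under 0.05. No mt- gene was called in Chd8 KO or DKO against WT or in DKO against Chd8 KO (limma; 0 at an unadjusted p under 0.05 in each).

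The interaction, which tests whether the change with CHD8 loss differed without P53 from that with P53, was called for 4 members, 1 positive and 3 negative, where 1.8% of all genes were called (0.965% positive and 0.836% negative). For Cox6a2 it was 2.74 ± 0.40 log2 (limma adjusted p = 0.00594), with changes of -0.40 ± 0.28 without P53 and -3.13 ± 0.28 with P53. For Cox6b2 it was -1.04 ± 0.20 (limma adjusted p = 0.0286), with -1.10 ± 0.14 without P53 and -0.06 ± 0.14 with P53. Ndufa13, an accessory subunit also known as the cell death regulator GRIM-19, had 94.6, 94.6 and 94.9 TPM in DKO, 112, 117 and 112 TPM in Chd8 KO, 121, 107 and 92.3 TPM in P53 KO, and 82.5, 86.0 and 71.8 TPM in WT. Chd8 KO was above WT in every library, while the P53 KO libraries spread around the DKO level (interaction -0.66 ± 0.13, limma adjusted p = 0.0352). Chd8 RNA itself changed by -0.58 ± 0.18 log2 without P53 and by -1.03 ± 0.18 with P53. Its interaction was 0.45 ± 0.25 (limma adjusted p = 0.333). The part of this difference in the member interactions was not tested.

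Atp5e, the epsilon subunit of the central stalk of complex V, had 381, 433 and 411 TPM in DKO, 463, 500.4 and 497 TPM in Chd8 KO, 605, 565 and 535 TPM in P53 KO, and 498, 422 and 413 TPM in WT. DKO was below P53 KO in all libraries, and Chd8 KO overlapped WT (interaction -0.61 ± 0.12, limma adjusted p = 0.029). All 4 calls were lost with the run as a covariate and in the run of 10 libraries, where P53 KO 3 alone stands for its genotype, but the sizes were kept in part or whole. With the run as a covariate the interaction was 2.56 ± 0.50 for Cox6a2 (limma adjusted p = 0.0592), -1.17 ± 0.24 for Cox6b2 (limma adjusted p = 0.086), -0.53 ± 0.14 for Atp5e and -0.46 ± 0.13 for Ndufa13. The count was 1 without WT 3, Chd8 KO 1, Chd8 KO 2, P53 KO 1 or P53 KO 2, it was 2 without WT 1, Chd8 KO 3, DKO 1 or DKO 3, and it was 12 without P53 KO 3. The Cox6a2 call passed in each of these fits.

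**Figure D5:**
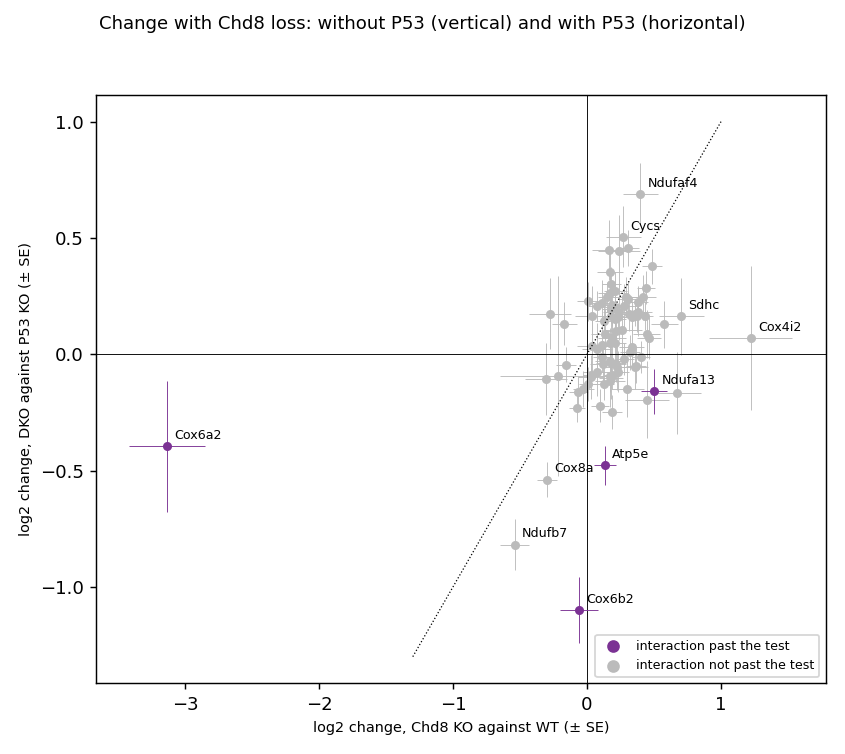
Log2 change with CHD8 loss for the 90 tested members, without P53 (DKO against P53 KO, vertical axis) and with P53 (Chd8 KO against WT, horizontal axis), each ± SE; the dotted line marks equal changes. Cox6a2, Cox6b2, Ndufa13 and Atp5e (purple) passed the interaction test, and Ndufb7 and Cox8a are below 0 on both axes.

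Regulators of respiratory genes were read beside the members. Of 15 tested, 3 were higher in Chd8 KO than in WT, where 9.65% of all genes were. Gabpa, the DNA-binding subunit of the ETS factor NRF-2, had 80.1, 73.4 and 80.8 TPM in DKO, 80.3, 75.4 and 94.4 TPM in Chd8 KO, 39.7, 46.5 and 45.2 TPM in P53 KO, and 47.5, 41.4 and 54.1 TPM in WT. The 6 libraries with the Chd8 deletion were all above the 6 without it. The log2 change was 0.71 ± 0.11 for DKO against WT, 0.82 ± 0.11 for DKO against P53 KO and 0.80 ± 0.11 for Chd8 KO against WT (limma adjusted p = 0.00612, 0.00221 and 0.00134), and all 3 calls held under the 24 alternatives. Yy1, a zinc finger factor, and Tfb1m, a methyltransferase of mitochondrial ribosomal RNA, rose by 0.34 ± 0.06 and 0.47 ± 0.09 in Chd8 KO against WT. Nrf1 (-0.12 ± 0.09), Esrra (0.64 ± 0.44) and Tfam (0.19 ± 0.11) did not pass.

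Promoter sequences are shown because many members moved together. RefSeq promoters (GRCm38.p6, 250 bases before to 50 after the start) matched 78 of the 94 members. The 4 motifs searched on both strands were that of NRF1 (GCGCA and GCGC with any base between them), CCGGAAGT (ETS, which includes GABPA), a YY1 motif and TCAAGGTCA (ERR), and no match of 1 motif overlapped a match of another. The NRF1 letters were in 19 of the 78 promoters (24.4%), against 11.8% of 9371 other tested genes and 5.19% of 27025 promoters in all. The ETS letters were in 6.41% of member promoters, against 9.37% of the other tested genes and 4.31% of all. The YY1 and ERR letters were in 7.69% and 2.56% of member promoters, against 2.85% and 0.309% of the other tested genes and 1.17% and 0.466% of all. Of the members called higher in Chd8 KO with a promoter, 7 of 21 held the NRF1 letters, and of the other tested members 12 of 53 did. The ETS letters were in 0 of these 21, in 4 of the 53 and in 1 of the 2 called lower. The YY1 letters were in 1 of the 21 and 5 of the 53, and the ERR letters in 0 and 2. The windows below lie upstream of the start on the minus strand, written 5′ to 3′ on the gene's strand, with the NRF1 letters or their reverse complement in capitals; the first 4 genes were called higher in Chd8 KO, and Sdha was not.
Atp5g2, chr15:102671054-102671115: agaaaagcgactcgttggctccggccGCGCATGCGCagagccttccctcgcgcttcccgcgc
Atp5k, chr5:108434414-108434475: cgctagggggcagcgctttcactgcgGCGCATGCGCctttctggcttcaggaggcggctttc
Ndufa8, chr2:36049339-36049398: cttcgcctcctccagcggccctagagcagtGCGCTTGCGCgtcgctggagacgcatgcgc
Ndufb4, chr16:37654412-37654473: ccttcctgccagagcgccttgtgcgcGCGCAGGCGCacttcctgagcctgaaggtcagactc
Sdha, chr13:74350260-74350321: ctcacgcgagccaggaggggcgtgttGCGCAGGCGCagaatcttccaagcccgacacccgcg

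A match describes letters in the window and is not a bound site. The same core appeared in members that were called and in Sdha, which was not, and both Ndufb4 and Sdha held 3 matches.

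Of 45 tested assembly factors that the rule does not cover, 7 were higher and 1 lower in Chd8 KO than in WT, where 9.65% of all genes were higher and 6.98% lower. Only 2 or 3 were higher without WT 1, WT 3 or any 1 of the Chd8 KO libraries. Tmem70, needed to build complex V, had 61.7, 65.2 and 66.7 TPM in Chd8 KO, against 47.2, 46.8 and 40.4 TPM in WT, with no overlap (0.52 ± 0.10 log2, limma adjusted p = 0.00726). Atpaf1, a chaperone of the F1 part, was the lower one, with 14.3, 13.5 and 17.5 TPM in Chd8 KO, against 25.9, 22.8 and 25.7 TPM in WT. The groups did not overlap, but the call (-0.69 ± 0.21, limma adjusted p = 0.0486) was lost under 13 of 24 alternatives, WT 1 left out among them. Surf1, an assembly factor of complex IV, had 77.4, 76.3 and 88.4 TPM in DKO, against 51.9, 47.2 and 51.3 TPM in WT, a rise of 0.67 ± 0.10 that held under the 24 alternatives.

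Of 21 genes of pyruvate oxidation and the TCA cycle, 3 were higher and 1 lower in Chd8 KO, near the share over all genes, with a median of 0.11. It was 1 higher without Chd8 KO 3 and 6 higher without P53 KO 3. The higher ones were Idh3g (0.28 ± 0.05), a subunit of NAD-dependent isocitrate dehydrogenase, Suclg1 (0.32 ± 0.07), of succinyl-CoA ligase, and Mdh2 (0.31 ± 0.08), the mitochondrial malate dehydrogenase. Pdhb, of pyruvate dehydrogenase, was lower (-0.29 ± 0.08). Of 12 genes of coenzyme Q synthesis, 3 were higher and 0 lower by limma, and 0 were lower at an unadjusted p under 0.05. It was 1 higher without WT 1, WT 3 or Chd8 KO 1. Coq7, a hydroxylase of that path, had 34.995 to 38.1 TPM in Chd8 KO, against 25.5 to 27 TPM in WT, with no overlap (0.47 ± 0.08 log2, limma adjusted p = 0.00445).

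P53 target genes listed for roles at mitochondria were read last. Of 11 on the list, 6 were higher in Chd8 KO than in WT, where 9.65% of all genes were, and 3 were higher without WT 1, WT 2, Chd8 KO 1 or Chd8 KO 2. They were Bbc3 (PUMA), Bax, Pmaip1 (NOXA) and Ei24, which act in cell death, Fdxr, a reductase of the steroid and iron-sulfur paths, and Polk, a DNA polymerase that is not known as a respiratory factor. Bbc3 had 7.13, 6.70 and 8.66 TPM in DKO, 46.6, 37.1 and 36.5 TPM in Chd8 KO, 11.9, 11.2 and 8.55 TPM in P53 KO, and 9.35, 8.84 and 8.30 TPM in WT. It stood apart in Chd8 KO (2.05 ± 0.15 log2 against WT), and its interaction was -2.49 ± 0.21 (limma adjusted p = 0.000148). Sco2, the P53 target that inserts copper into complex IV, changed by 0.51 ± 0.27 in Chd8 KO against WT and was not called (limma adjusted p = 0.235). Tigar (0.58 ± 0.25) was not called either, and Gls2 (-0.27 ± 0.27), Aifm2 (-0.21 ± 0.20) and Rrm2b (-0.07 ± 0.18) were negative without a call. Rrm2b was called higher in DKO, against Chd8 KO (0.70 ± 0.18, limma adjusted p = 0.0317) and against P53 KO (0.70 ± 0.18, limma adjusted p = 0.027).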

How the data were processed

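RNA of 12 LSK libraries was analysed, 3 for each of DKO, Chd8 KO, P53 KO and WT; 4 ATAC-seq and 6 CUT&RUN samples were not analysed here. The authors deposited transcript-level TPM for each library, 105129 transcripts of 33641 gene symbols in every table. The submitters' processing notes list, without roles, GRCm38 (mm10), DESeq2 1.26.0, STAR 2.6.1e, bedtools 2.27.0, FastQC 0.11.7, MACS2 2.1.2, cutadapt 1.9.1, featureCounts 1.6.2, Trim Galore 0.4.2 and Bowtie2 2.3.4.1. The tool that made the TPM was not stated. Each table sums to 1000000 TPM, so depth is unknown, and TPM are shares, in which a gain of one gene lowers others.

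TPM were summed per gene. The 13162 genes that averaged 1 TPM or more were fitted on log2(TPM + 1), which understates changes of low genes, with limma 3.58.1 in R 4.3.3, with 1 mean per genotype and a variance trend. Tests were two-sided, adjusted by Benjamini-Hochberg over all genes in each of 6 contrasts, and called at 0.05; the fit was tested on simulated data. Errors of changes are SE and those of levels SD. Python 3.11.15 with pandas 2.3.3, numpy 2.4.6 and matplotlib 3.10.9 did the rest. Members, lists and tests were chosen with earlier results of these data known. Values were printed for the 2 members with the smallest p in Chd8 KO against WT and the most abundant one of each class, all of complex II, Cycs, Cox7a2l, the isoform pairs, the 4 largest calls of each other contrast, and up to 3 called genes of each further list. Other genes given with values were chosen after their values were seen. Positions and promoters came from RefSeq (91 members matched by symbol and 3 by synonym). Alternatives changed the pseudocount, the filter, the scaling, the transcript, the replicate block, the run and the libraries fitted. A gene that the rule for named members includes is not reported here.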

Additional observations from a re-analysis of the deposited data

Results flagged for a closer look

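The difference between the change with CHD8 loss without P53 and that with P53 was itself tested (limma interaction) and passed for 4 members and 3 of the P53 targets with roles at mitochondria. Among the members it was 2.74 log2 for Cox6a2, -1.04 for Cox6b2, -0.66 for Ndufa13 and -0.61 for Atp5e, and all 4 calls were lost with the run as a covariate, where the values were 2.56, -1.17, -0.46 and -0.53 in the same order. Among the P53 targets it was -2.49 for Bbc3, -1.38 for Bax and -0.89 for Ei24, and the calls of Bbc3 and Bax held under the 23 alternatives run for the interaction, while that of Ei24 was lost on its most abundant transcript. Among the marker lists of other cell types the interaction was called, always positive, for 7 of 14 erythroid and 4 of 10 B-lineage markers. It was also called for 2 of 8 mast, basophil and eosinophil and 1 of 5 T and NK markers, where 0.965% of all genes were positive. As single libraries were left out, 0 to 12 erythroid, 1 to 9 B-lineage and 0 to 4 mast, basophil and eosinophil markers were called positive. Chd8 RNA itself had an interaction of 0.45 ± 0.25 log2 (limma adjusted p = 0.333), and its part in these calls was not tested.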

How the results depend on the processing

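Of 66 member calls over the 6 contrasts, 19 held under every alternative. In 1580 alternative values 1249 were still called and 330 were not, and 1 changed sign, Cox6b2 in DKO against P53 KO at 0.038 on its most abundant transcript. The number of called members moved by over 1.5 times as follows. Median-of-ratios scaling gave 17 in Chd8 KO against WT, 3 in DKO against WT and 7 in DKO against P53 KO. The run as a covariate gave 3 in DKO against P53 KO and 0 for the interaction, and the run of 10 libraries gave 2 and 0. A fit on only the groups compared gave 13 in DKO against Chd8 KO and 5 in DKO against P53 KO, and no low-value filter gave 2 for the interaction. Leaving out 1 library gave 14 to 35 in Chd8 KO against WT, 0 to 11 in P53 KO against WT, 4 to 12 in DKO against WT, 3 to 8 in DKO against Chd8 KO, 7 to 26 in DKO against P53 KO and 1 to 12 for the interaction. For the fits with 1 library left out, the share of all genes called is not given. Beyond the samples left out, the causes were not tested. Replicate numbers are shared between genotypes, and same-numbered samples correlated at only -0.08 to 0.12. With 3 libraries per genotype these low values cannot exclude that the numbers pair samples. With the replicate block the counts were 32, 0, 7, 6, 13 and 4 in the same order. Depth is unknown, so low members such as Cox6a2 carry an error that cannot be stated beyond the replicate spread.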
